A study of Mus musculus with 6 samples.

Results

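The genes of glycolysis and of the hypoxia response were examined in the condensing cartilage of the mouse hind limb. The list held 35 genes in 5 roles. These were the subunits of hypoxia-inducible factor (HIF) with the prolyl hydroxylases that act on them, the target genes of HIF, the kinases that set the flux through glycolysis, the transporters of glucose and lactate, and the enzymes from hexokinase to lactate dehydrogenase. The genes were listed by name for their known roles, and no value on these arrays enters the rule, although the list was chosen with earlier results of these data known. A gene was measured where an array spot carried its symbol and no other, which held for 33 of the 35 genes, on 75 spots, out of 19077 genes on 45220 spots in all. Gpi1, which converts glucose phosphate to fructose phosphate, and Eno1, the common enolase, had no such spot.

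Tibial and fibular tissue of Swiss white mouse embryos was microdissected from 231 sections at 3 ages: pre-condensed mesenchyme at 11.5 days post coitum (dpc) from 4 hind limbs, mesenchymal condensations at 12.5 dpc from 3 hind limbs, and cartilage anlagen at 13.5 dpc from 4 hind limbs. No mutant allele and no treatment is named for any age. The tissue of each age was pooled into 1 RNA pool and amplified over successive rounds, and each pair of pools was hybridised to 2 two-colour arrays with the dyes Cy5 and Cy3 exchanged, which gave 6 arrays. The arrays of a pair are thus technical repeats of the same 2 pools, no difference between ages had a biological replicate, and no p-value is given.

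HIF is a transcription factor made of an oxygen-sensitive alpha subunit and a stable partner. In the presence of oxygen the prolyl hydroxylases mark the alpha subunit for destruction, and when oxygen is scarce the subunit persists and switches on genes for glucose uptake, glycolysis, lactate export and the growth of vessels. Cartilage has no vessels, its chondrocytes rely largely on glycolysis, and HIF is required for the survival of chondrocytes in the growth plate. Because the alpha subunit is controlled mainly as a protein, its mRNA level is not a measure of its activity.

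Every value below is a log2 ratio of the later over the earlier age, relative to the median spot of its array. Each is given for the array with the later age in Cy5 first and the array with the later age in Cy3 second, and is followed by the value fitted over all 6 arrays. The interval from 11.5 to 12.5 dpc is called the first step, that from 12.5 to 13.5 dpc the second step, and that from 11.5 to 13.5 dpc the whole period. As a technical error, the text gives how far the paired arrays of a comparison lie from their common mean. Its median over all genes was between 0.177 and 0.201 in the 3 comparisons. The paired arrays correlated across spots with r = 0.518 for the whole period, 0.397 for the first step and 0.332 for the second, over at least 42521 spots, and they share their pools. All 8 cartilage markers checked, among them Col2a1 and Acan, rose by at least 3-fold over the whole period, with log2 differences from 1.84 to 7.81, and 6 of the 8 were above 0 on all 6 arrays. A ratio shows no level, so the abundance of a gene could not be set against that of another. In pooled tissue, fewer cells of a type and less RNA per cell cannot be told apart.

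From 11.5 to 13.5 dpc Hif1a and Egln3 fell by at least 3-fold and Slc16a3, the lactate exporter, rose by at least 3-fold, while the enzymes of glycolysis as a group lay near 0. These were 2 members lower and 1 member higher of the 33 measured, where 2.57% of all genes were at least 3-fold lower and 2.93% at least 3-fold higher. The count of higher members is close to that background. Hif1a, Egln3 and Slc16a3 each rest on 1 spot, so no second spot of the gene could be set beside these values. Between 11.5 and 12.5 dpc only Gapdh was past 3-fold among the members, and it was lower. Across all genes 0.299% were at least 3-fold lower and 1.24% higher in that step. Between 12.5 and 13.5 dpc Slc16a3 and Gapdh rose by at least 3-fold and no member fell, beside 1.35% of all genes higher and 0.776% lower. At a 2-fold difference, 6 members were lower and 2 higher over the whole period, where the shares of all genes were 8.5% and 7.43%. In the first step 4 members were 2-fold lower and 0 higher, against 2.56% and 6.23% of all genes, and in the second 0 were lower and 5 higher, against 3.7% and 4.79%.

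The signs of the direct arrays give a further count that needs no threshold. In the first step 18 members were below 0 on both arrays, 3 above 0 on both and 12 of opposite sign, where the shares of all genes were 37.3%, 34.4% and 28.2%. In the second step 4 were below 0 on both, 16 above and 13 of opposite sign, against 30.2%, 32.8% and 37% of all genes. Over the whole period 11 were below, 7 above and 15 of opposite sign, against 36.1%, 34.9% and 28.9%. The members thus leaned to lower values in the first step and to higher values in the second, relative to the median spot of each array, with medians of -0.47 and 0.23. Without centring these medians were -0.02 and -0.05. Without dim spots, whose values lie on ratios of small whole numbers, they were -0.49 and 0.23, beside -0.18 and 0.05 for all genes.

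The centring of the arrays bears on these counts. Without it the median of all genes moved to 0.24 for the whole period, 0.44 in the first step and -0.32 in the second. Of the genes past 3-fold over the whole period, 559 were higher and 490 lower with centring, and 707 and 341 without it. The split was 237 higher and 57 lower in the first step, against 853 and 14 without centring. In the second step it was 258 higher and 148 lower, against 172 and 306. Gapdh was no longer past 3-fold in either step without centring, at -1.18 and 1.39, whereas the calls of Hif1a, Egln3 and Slc16a3 stood.

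**Figure D1:**
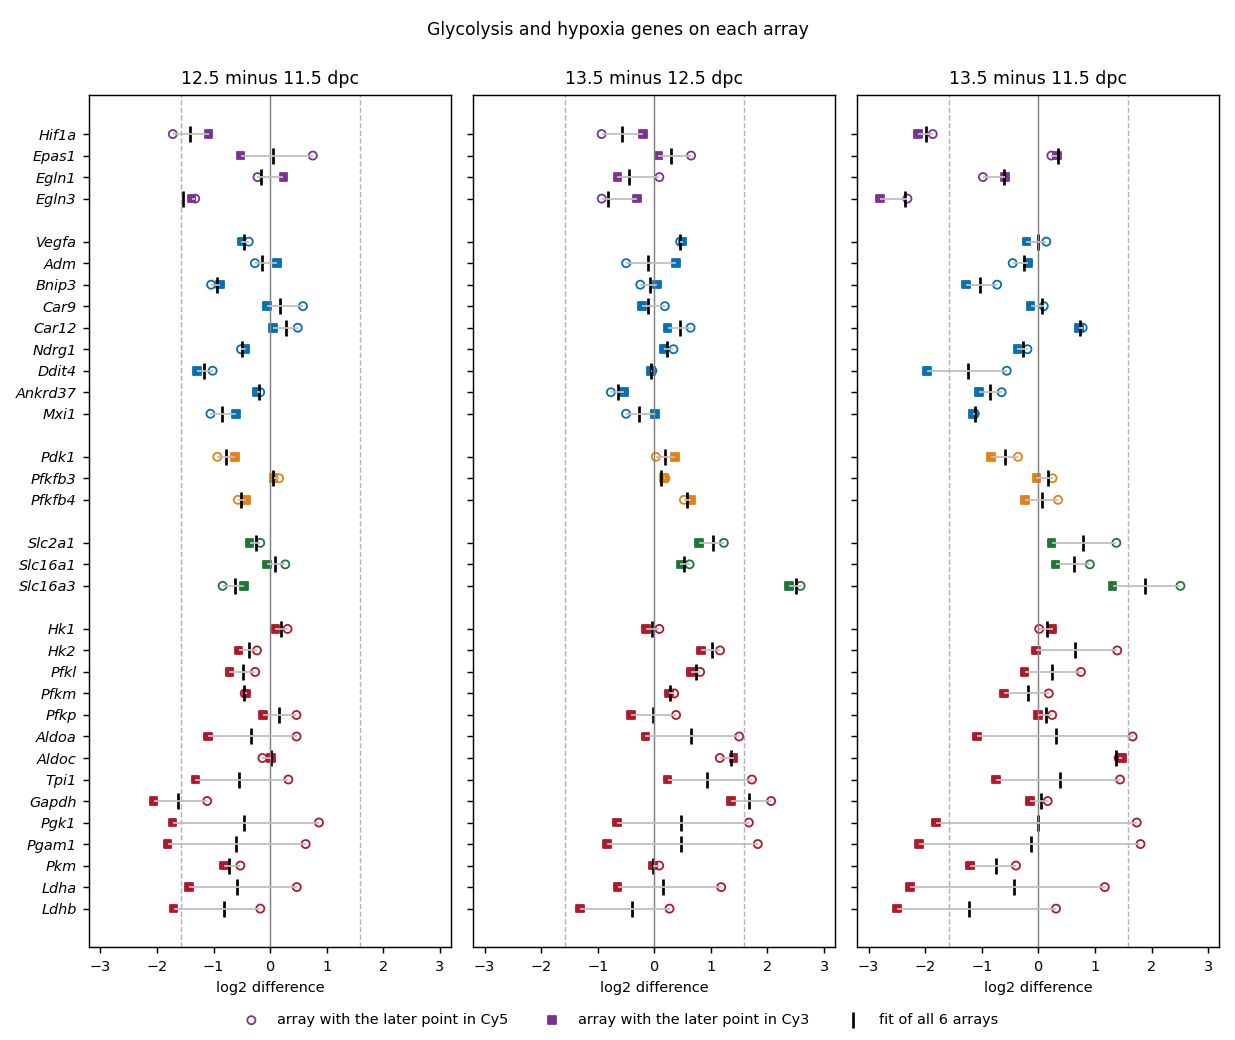
Log2 difference (later over earlier age) of each measured member on each array, in panels for the first step, the second step and the whole period. Open circles are the array with the later age in Cy5, filled squares the array with the later age in Cy3, black ticks the value fitted over 6 arrays, dashed lines a 3-fold difference and colours the 5 roles. Hif1a and Egln3 lie below the lower line for the whole period on both arrays, and the symbols of Pgk1, Pgam1 and Ldha lie on opposite sides of 0.

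Hif1a, the oxygen-labile subunit found in most cells, was lower at both later ages. It measured -1.72 and -1.09 in the first step, -0.93 and -0.20 in the second step, and -1.87 and -2.13 over the whole period. All 6 arrays were below 0, so that the earlier age was the higher in each. The fitted difference over the whole period was -1.99 with a technical error of 0.13, a 3.97-fold lower value, and 98.9% of all genes had a higher one. Most of the difference was present by 12.5 dpc, at -1.41 fitted, and the second step was -0.57.

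Egln3, a prolyl hydroxylase whose own gene is switched on by HIF, had the lowest value of the members over the whole period. Its arrays read -1.33 and -1.39 for the first step, -0.93 and -0.31 for the second, and -2.31 and -2.79 over both. As for Hif1a, no array was above 0. The fit gave -2.36 ± 0.24 (technical error), a 5.14-fold lower value at 13.5 dpc, of which -1.55 lay in the first step. The direct comparison was lower than the sum of the separate steps, with a mismatch of -0.58, against a spread of 0.375 (SD) of that mismatch over all genes. Leaving out any array kept the fitted values of Hif1a and Egln3 past 3-fold, and over all settings tried they ranged from -2.13 to -1.82 and from -2.55 to -1.98.

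The other members of this role stayed under 2-fold. Egln1, the main prolyl hydroxylase of most tissues, had a mean of -0.61 for 13.5 against 11.5 dpc from a pair of spots that disagreed. The spot that was not dim read -1.40 and -1.56, with -1.44 fitted, and the dim spot, whose values lie on ratios of small whole numbers, gave 0.21. Epas1, the alpha subunit best known from vessels, measured 0.23 and 0.33 over the whole period and 0.35 fitted, as the mean of 2 spots that disagreed. Of these spots 1 read 0.78 and 0.79, with 0.66 fitted, and the other -0.32 and -0.13, with 0.03 fitted. The arrays of Epas1 for the first step had opposite signs, at 0.75 and -0.52.

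The promoter windows of the members furthest from 0 are shown here because HIF binds DNA at a short core, read as ACGTG or, on the opposite strand, CACGT. A window was the 250 bases before a gene's start in RefSeq (mouse build GRCm38.p6), and capitals mark the core. Hif1a and Egln3 had the lowest values for 13.5 against 11.5 dpc among members with the same sign on both direct arrays. The window of Hif1a (chr12:73907617-73907866, plus strand) held the palindrome CACGTG, which reads as the core on both strands and is also the motif of E-box factors such as Myc, and a further core whose first base lay 70 bases before the start. The window of Egln3 (chr12:54203875-54204124, minus strand) held 1 core, 229 bases before the start.
Hif1a: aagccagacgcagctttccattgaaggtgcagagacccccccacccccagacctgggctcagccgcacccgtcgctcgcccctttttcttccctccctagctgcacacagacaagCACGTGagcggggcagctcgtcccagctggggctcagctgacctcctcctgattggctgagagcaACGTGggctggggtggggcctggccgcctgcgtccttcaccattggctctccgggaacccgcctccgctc
Egln3: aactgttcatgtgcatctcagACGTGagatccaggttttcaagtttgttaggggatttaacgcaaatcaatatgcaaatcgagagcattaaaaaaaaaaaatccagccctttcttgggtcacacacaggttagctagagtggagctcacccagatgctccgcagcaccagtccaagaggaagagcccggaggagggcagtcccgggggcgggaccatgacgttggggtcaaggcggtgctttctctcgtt
Slc16a3 and Aldoc had the highest values by the same rule. The window of Slc16a3 (chr11:120948817-120949066, plus strand) held the core at 27 and at 14 bases before the start, and the window at the first of the 2 starts of Aldoc (chr11:78322823-78323072, plus strand) held none.
Slc16a3: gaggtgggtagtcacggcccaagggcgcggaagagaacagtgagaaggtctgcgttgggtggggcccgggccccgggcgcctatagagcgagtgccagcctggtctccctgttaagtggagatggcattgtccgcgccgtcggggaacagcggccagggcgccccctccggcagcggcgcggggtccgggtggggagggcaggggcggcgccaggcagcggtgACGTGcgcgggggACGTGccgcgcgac
Aldoc: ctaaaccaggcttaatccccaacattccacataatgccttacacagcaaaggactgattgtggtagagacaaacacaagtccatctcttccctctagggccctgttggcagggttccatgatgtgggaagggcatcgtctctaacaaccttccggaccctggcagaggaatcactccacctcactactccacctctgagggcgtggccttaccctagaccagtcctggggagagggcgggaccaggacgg
Of the 33 members with a window in the table, 20 (60.6%) held the core in at least 1 window, compared with 3261 of 15299 genes measured on the arrays (21.3%). Among the hypoxia target genes it was 6 of 8, and among the glycolytic enzymes 7 of 16. Ndrg1 and Epas1 had no window in the table, whereas Gpi1 and Eno1, which were not measured, are among these 33 and 16. The members had 49 windows and the measured genes 18893, so the number of windows per gene differed. By window the shares were 49.0% and 18.7%. The members were listed for known roles that include being HIF targets, so the share is no test of HIF binding. A match to 5 letters is a description of these windows, and genes that fell and genes that rose both held it.

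The 9 target genes of HIF that were followed act outside glycolysis, and none differed by 3-fold in any comparison. Of all genes, 2.57% were at least 3-fold lower and 2.93% higher over the whole period. The shares were 0.299% and 1.24% in the first step, and 0.776% and 1.35% in the second. The median of the targets was -0.26 for 13.5 against 11.5 dpc, where the median of all genes was 0.07. Below 0 on both direct arrays were 6 of the 9, beside 36.1% of all genes. In the first step the median was -0.47, beside -0.01 for all genes. Again 6 of 9 were below 0 on both arrays, beside 37.3% of all genes. The second step had a median of -0.08, beside -0.04 for all genes. Without centring the median of the targets was -0.02 in the first step, while that of all genes was 0.44, and without dim spots it stayed at -0.47 while that of all genes was -0.18, so that the distance to all genes narrowed in the second case only.

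Ddit4, an inhibitor of the growth kinase mTOR, had the lowest value of the targets. It measured -1.02 and -1.30 in the first step, -0.03 and -0.06 in the second step, and -0.56 and -1.97 over the whole period. The difference was in the first step, at -1.18 fitted, and the arrays of the direct comparison over the whole period lay far apart. The fitted value over both steps was -1.24 ± 0.71 (technical error), which was -0.88 without the array with 13.5 dpc in Cy3.

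Bnip3, a protein of the outer mitochondrial membrane that acts in the removal of mitochondria, followed the same course. Its arrays gave -1.04 and -0.89 for the first step, -0.25 and 0.05 for the second, and -0.73 and -1.28 over the whole period. The pool at 11.5 dpc was the higher on all 4 arrays that carried it, and the arrays of the second step straddled 0. The fit was -1.03 ± 0.28 for 13.5 against 11.5 dpc, a value that was 2.04-fold lower.

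Mxi1, a partner of Max that opposes Myc, had a close pair of direct arrays over the whole period and wider ones in the steps. It read -1.12 and -1.16 for 13.5 against 11.5 dpc, -1.06 and -0.61 for the first step, and -0.50 and 0.01 for the second. The fitted difference over both steps was -1.12 ± 0.02. Ankrd37, a small ankyrin repeat protein induced in hypoxia, had its larger difference in the second step, with -0.18 and -0.24 followed by -0.77 and -0.53, and a fit of -0.85 over both.

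Vegfa and Ndrg1 were lower at 12.5 dpc on both arrays and higher again at 13.5 dpc on both, although the fitted second step of Ndrg1 was -0.05 without centring. Vegfa, the main growth factor for vessels, was printed on 12 spots, whose means were -0.38 and -0.51 for the first step and 0.46 and 0.50 for the second. On the fit these steps were -0.47 and 0.46, and the SD over the 12 spots was 0.11 for the first step and 0.30 for the second, in which 2 of the spots lay below 0, at -0.19 and -0.17. The net difference of Vegfa over the whole period was -0.01 as a mean of its spots, with 0.14 and -0.21 on the direct arrays. The median of the 12 spots was 0.12, and the same 2 spots lay apart, at -0.58 and -0.89. Ndrg1, a protein induced by hypoxia and by differentiation, measured -0.52 and -0.44 and then 0.34 and 0.16, for a net value of -0.26.

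The carbonic anhydrases and Adm stayed under 2-fold. Car12, an enzyme of the cell surface that helps to set the pH outside the cell, was the only target above 0 on both direct arrays over the whole period, at 0.78 and 0.72, with 0.74 fitted. Its spots disagreed in the second step, at -0.18 and 1.09. The relative Car9 measured 0.10 and -0.14, and Adm, which encodes the vasodilator adrenomedullin, measured -0.45 and -0.19. The arrays of Car9 straddled 0 in all 3 comparisons and those of Adm in both steps.

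Markers of blood were lower over the same period. Of the 7 vessel markers 5 were below 0 on both direct arrays, beside 36.1% of all genes. Of 6 erythroid genes measured, 4 were past 3-fold lower over the whole period, with a range from -5.02 to -0.97 and a median of -2.73, and the same number were at least 3-fold lower at 12.5 dpc, with a median of -1.73. Of all genes, 2.57% were at least 3-fold lower and 2.93% higher over the whole period, and 0.299% were lower in the first step. Of 7 endothelial genes 1, Tie1, was at least 3-fold lower, at -1.81, and the median was -0.64. Emcn, Esam, Cdh5 and Tek were at -1.33, -1.015, -0.64 and -0.22. Pecam1 and Kdr were at 0.13 and 0.01, with direct arrays of opposite sign. Dim spots were 5 of 11 for Pecam1, 10 of 20 for Kdr, 1 of 2 for Cdh5 and for Tek, and none for Tie1, Emcn and Esam. Among 5 genes of early limb mesenchyme 2 were at least 3-fold lower, with a median of -1.22. Of 6 skeletal muscle genes 4 were at least 3-fold higher, with a median of 1.80 over the 6. The others, Myod1 and Myog, were at 0.15 and -0.13, with direct arrays of opposite sign. The paper reported Myod1 close to background and proposed that contamination by muscle precursors was not significant. No gene of ectoderm (6 measured) or macrophages (3 measured) was past 3-fold over the whole period. The ratios hold no level that would show any of these markers to be at 0, and the part of these cells in the values of the members was not tested.

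**Figure D2:**
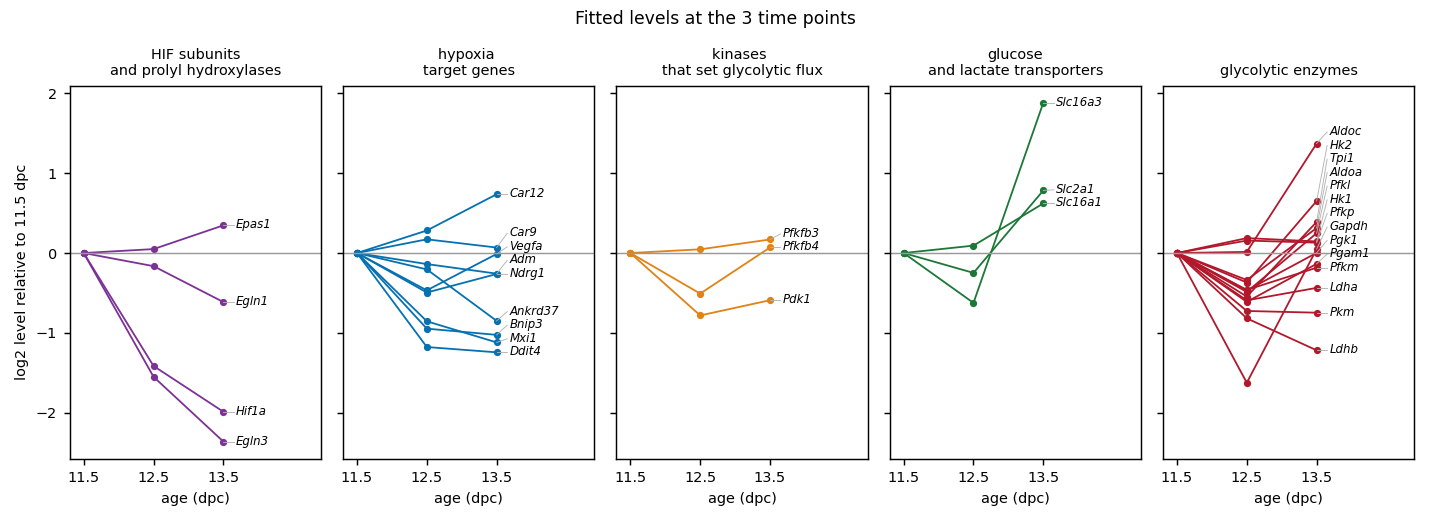
Log2 level relative to 11.5 dpc (vertical axis) at 11.5, 12.5 and 13.5 dpc (horizontal axis) from the fit over 6 arrays, with 1 line per member in a panel for each of the 5 roles. Hif1a and Egln3 end at -1.99 and -2.36, Slc16a3 ends at 1.88, and the line of Gapdh drops to -1.63 at 12.5 dpc and returns to 0.05.

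The kinases that set the flux through glycolysis all stayed within 2-fold. Pdk1, which closes the entry of pyruvate into mitochondrial oxidation, measured -0.94 and -0.62 in the first step and 0.03 and 0.36 in the second. Pfkfb4, which makes and removes the activator of phosphofructokinase, gave -0.57 and -0.42 and then 0.52 and 0.65. Each was lower at 12.5 dpc on both arrays and higher again at 13.5 dpc on both, although the fitted second step of Pdk1 was -0.09 without centring. From 11.5 to 13.5 dpc the fit was -0.59 for Pdk1 and 0.07 for Pfkfb4. Pfkfb3, the relative of Pfkfb4 that favours making the activator, had fitted means of 0.05, 0.12 and 0.17 from 3 spots that disagreed. Of these spots 1 read -0.59 and then 0.43, another 0.41 and then -0.04, and the third was dim.

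Slc16a3, which exports lactate from cells that run on glycolysis, had the largest positive difference of the members. Its arrays gave -0.84 and -0.46 in the first step, 2.58 and 2.38 in the second step, and 2.51 and 1.31 over the whole period. The 4 arrays with 13.5 dpc were all above 0 and those of the first step both below. The value at 13.5 dpc was 5.69-fold that at 12.5 dpc, at 2.51 ± 0.10 on the log2 scale, and 3.69-fold that at 11.5 dpc, at 1.88 ± 0.60. The second of these was 1.57 without the array with 13.5 dpc in Cy5 against 11.5 dpc, and thus just under 3-fold, whereas the difference from 12.5 dpc stayed between 2.18 and 2.84 under every setting tried.

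Both other transporters were also highest at 13.5 dpc. Slc2a1, the basal glucose transporter of most cells, measured 1.23 and 0.79 for the second step and 1.38 and 0.23 for 13.5 against 11.5 dpc. The fit for Slc2a1 gave a 2.05-fold higher value at 13.5 than at 12.5 dpc, and 0.78 ± 0.57 relative to 11.5 dpc. Slc16a1, a lactate carrier that works in either direction, gave 0.62 and 0.46 for the second step and 0.91 and 0.31 for the whole period, as means of 3 spots. The spots of Slc16a1 disagreed in the second step, with fits of 0.75, -0.08 and 0.92, and the spot at -0.08 read 0.37 and -0.45. All 3 transporters were thus above 0 on both arrays of both comparisons that include 13.5 dpc, Slc16a1 as a mean of its spots.

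The enzymes of glycolysis had a median of 0.09 for 13.5 against 11.5 dpc, with 14 of 16 measured. The median was -0.48 for the first step and 0.47 for the second, where that of all genes was -0.01 and -0.04. Without centring it was -0.03 and 0.19, beside 0.44 and -0.32 for all genes. Without dim spots it stayed at -0.48 and 0.47, beside -0.18 and 0.05 for all genes, which narrowed the distance in the first step. The single arrays differed far more than this: the median of the 14 enzymes over the whole period was 0.96 with 13.5 dpc in Cy5 and -0.68 with 13.5 dpc in Cy3. In that comparison 11 of the 14 had opposite signs on the direct arrays, beside 28.9% of all genes.

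The distance between the arrays followed the dyes. For each gene the dye component is the part by which the array with the later age in Cy5 exceeds the mean of its pair, averaged over the 3 pairs. It was 1.50 for Pgam1, 1.41 for Pgk1, 1.20 for Ldha, 0.99 for Ldhb and Aldoa and 0.89 for Tpi1, and at least 95.4% of all genes had a smaller one than each of these. The median over the 14 enzymes was 0.34, and over all genes -0.02. A component of this kind cancels in the mean of a pair with exchanged dyes, but it does not cancel when an array is left out.

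**Figure D3:**
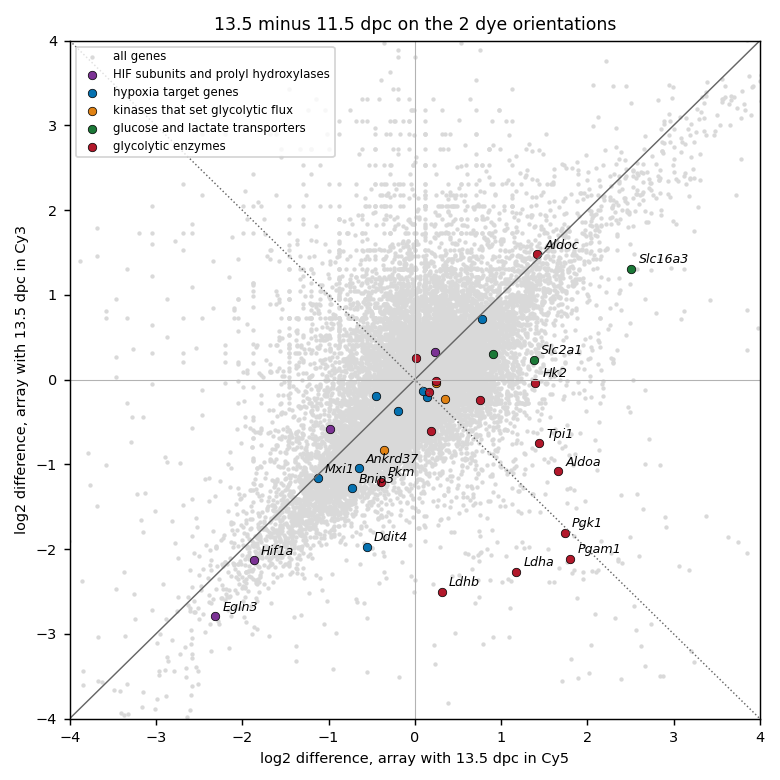
Log2 difference for 13.5 against 11.5 dpc on the array with 13.5 dpc in Cy5 (horizontal axis) and on the array with 13.5 dpc in Cy3 (vertical axis), with all genes in grey, the members in the colours of their roles, the line of equal values solid and the line of opposite values dotted. Both axes end at -4 and 4. Hif1a, Egln3 and Aldoc lie near the solid line, and Pgk1 (1.74 and -1.81), Pgam1 (1.81 and -2.11) and Ldha (1.17 and -2.27) near the dotted line.

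Pgk1, the enzyme of the first ATP-yielding reaction, shows how such a gene reads. Its 11 spots had means of 0.86 and -1.72 in the first step, 1.67 and -0.66 in the second step, and 1.74 and -1.81 over the whole period. Every array with the later age in Cy5 was above 0 and every array with it in Cy3 below. The fitted value for the whole period was 0.00, the 11 spots had an SD of 0.05 around it, and the technical error was 1.77. The spots of Pgk1 thus repeated each other closely within an array while the arrays differed.

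Pgam1, the mutase that follows Pgk1, and Aldoa, the aldolase of most tissues, behaved likewise. Pgam1 measured 0.62 and -1.81, then 1.83 and -0.84, and 1.81 and -2.11 over the whole period, for which the fit was -0.14 ± 1.96. Aldoa gave 1.67 and -1.08 over the whole period, with a fit of 0.31 ± 1.37 from a pair of spots. With both dye orientations in, Pgam1 was -0.61 in the first step and 0.48 in the second, with -0.16 and 0.20 without centring, and Aldoa was -0.34 and 0.65, with 0.11 and 0.37 without centring. All of these values were smaller than the technical error of their comparison. That error includes the dye component, which cancels in the fit, so it is no measure of the spread of these fitted values.

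Ldha, which turns pyruvate into lactate, was printed on a pair of spots that read differently. The first gave -0.46 and -1.39 for 13.5 against 11.5 dpc, -0.90 fitted, and the second gave 2.80 and -3.14, 0.03 fitted. Their mean was -0.44 ± 1.72, and it was -1.24 without the array with 13.5 dpc in Cy5 against 11.5 dpc and 0.48 without the one with exchanged dyes. Ldhb, the form that favours the oxidation of lactate, measured 0.31 and -2.50, with a fit of -1.22 ± 1.41, and was 0.24 without the 3 arrays that had the later age in Cy3 and -2.68 without the 3 that had it in Cy5. Leaving out a dye orientation leaves the dye component of Ldhb in the value, and with both orientations in, the fit stayed below 0 under every setting.

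Tpi1, which interconverts the triose phosphates, had 1 spot of each kind. For 13.5 against 11.5 dpc the first read 2.55 and -1.77 and the second 0.33 and 0.27. Their fitted values were nearly the same, at 0.41 and 0.37. For the second step the gene was at 0.94, and the spot without the large dye difference gave 0.97 and 1.44.

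Gapdh, the enzyme that oxidises glyceraldehyde phosphate and is often taken as a constant reference gene, was the enzyme with the largest steps. It measured -1.11 and -2.06 in the first step, 2.06 and 1.36 in the second step, and 0.17 and -0.14 over the whole period. The pool at 12.5 dpc was the lower on all 4 arrays that carried it, and the other pools differed by less than the technical error. The fit was -1.63 ± 0.47 for the first step and 1.67 ± 0.35 for the second, which are 3.08-fold and 3.19-fold. Both values lie near the 3-fold line: the first step of Gapdh was -1.41 without the array with 12.5 dpc in Cy3 against 11.5 dpc, -1.58 without the array with 13.5 dpc in Cy3 against 11.5 dpc and -1.53 without the array with 13.5 dpc in Cy5 against 12.5 dpc. The second step was 1.57 and 1.48 without the first and the last of these arrays. Gapdh rests on 1 spot, and glycolytic genes such as Gapdh, Pgk1 and Ldha have many processed pseudogenes of near-identical sequence whose signal could not be separated here.

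Aldoc, the aldolase of brain, was the enzyme with the highest value at 13.5 relative to 11.5 dpc. It gave -0.14 and 0.01, then 1.16 and 1.40, and 1.42 and 1.48 over the whole period. The 4 arrays with 13.5 dpc were above 0 and lay close together, and the first step was near 0. The fitted difference over the whole period was 1.37 ± 0.03, a 2.59-fold higher value. A dim spot gave 0.95 and the other 1.79, so that Aldoc was past 3-fold once dim spots were left out, which raised the count of higher members to 2.

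Hexokinase and phosphofructokinase, the gates of the pathway, were each measured in several isoforms. Hk2, the inducible hexokinase, measured -0.24 and -0.56 for the first step and 1.16 and 0.82 for the second, and was 2.03-fold higher at 13.5 than at 12.5 dpc. Hk1, the constant form, lay between -0.04 and 0.19 in the fit of all 3 comparisons as the mean of 6 spots, 2 of them dim, that went both ways, from -0.46 to 0.67 in the first step and from -0.50 to 0.64 in the second. Hk2 relative to 11.5 dpc was 0.65 ± 0.72, which is within its technical error. That error includes the dye component, which was 0.35 for Hk2.

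Pfkl, the liver type of phosphofructokinase, gave -0.27 and -0.72 and then 0.81 and 0.65, and Pfkm, the muscle type, gave -0.45 and -0.42 and then 0.35 and 0.26. Both were lower at 12.5 dpc on both arrays and higher at 13.5 dpc on both. Pfkp, the platelet type, lay at 0.16 and -0.03 in the fit of these steps, with arrays of opposite sign in each. Pkm, the pyruvate kinase of most tissues outside liver, was at -0.75 for 13.5 against 11.5 dpc as the mean of 3 spots at -1.90, 0.05 and -0.40. The spots of Pkm carry different transcript records, and their values differed by more than the technical error of 0.40.

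**Figure D4:**
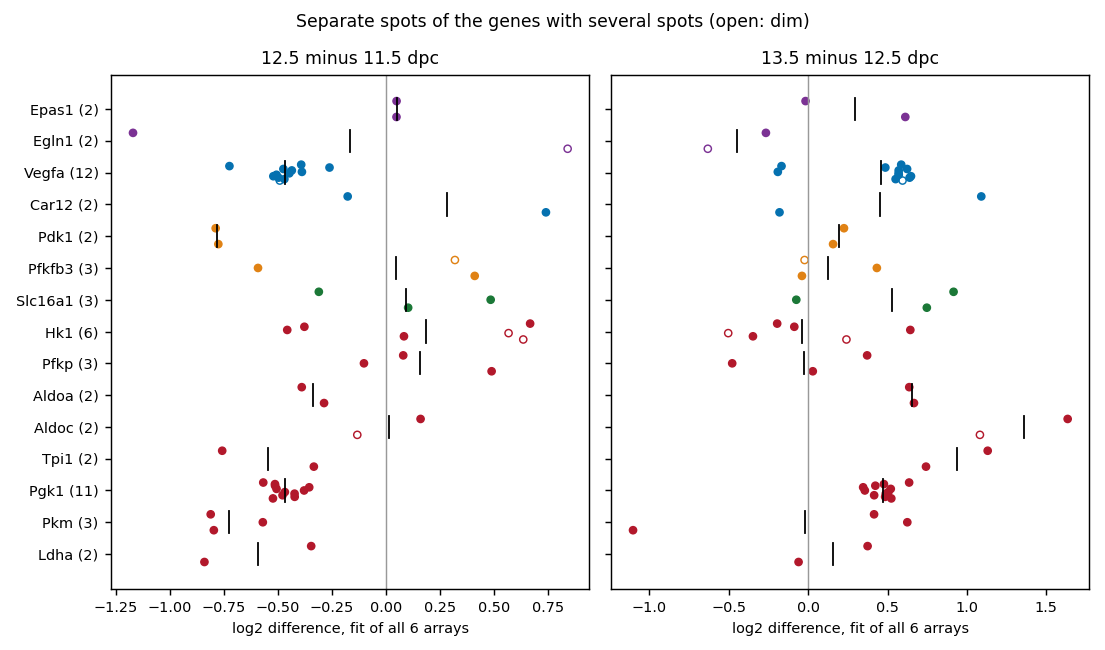
Fitted log2 difference of each separate spot (horizontal axis) for the 15 members printed on several spots (vertical axis), for the first and the second step. Open symbols are dim spots and black bars the mean of a gene. The 11 spots of Pgk1 cluster tightly in both steps, whereas those of Pkm spread widely in the second step, from -1.10 to 0.62, and those of Egln1 in the first, from -1.17 to 0.84.

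A lower value at 12.5 dpc followed by a higher one at 13.5 dpc was thus found in several roles, a pattern that was picked out after the values had been seen. The fit placed the lowest level at 12.5 dpc for 15 of 33 members, among them 9 of the 14 enzymes but 2 of the 9 hypoxia targets, where 28% of all genes had their lowest level at that age. A stricter count, below 0 on both arrays of the first step and above 0 on both of the second, held Vegfa, Ndrg1, Pdk1, Pfkfb4, Slc2a1, Slc16a3, Hk2, Pfkl, Pfkm and Gapdh. These are 10 of 33 members, against 15.8% of all genes. Without centring, the fitted first step of Slc2a1 and of Hk2 turned to 0.20 and 0.08 and the fitted second step of Ndrg1 and of Pdk1 to -0.05 and -0.09, and the second step of Pfkm was at 0. The placement depends on the scale of the 12.5 dpc pool: without centring 8 members and 5 enzymes were lowest at 12.5 dpc, beside 5.72% of all genes, and without dim spots 17 members and 10 enzymes, beside 36.2% of all genes.

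The neighbouring genes of these pathways were counted in the same way, from lists of known function. Of 14 further genes of the HIF machinery, none was past 3-fold higher and 2 were at least 3-fold lower over the whole period, with a list median of -0.31. Across all genes 2.93% were at least 3-fold higher and 2.57% lower in that comparison. Arnt2, a partner subunit of the alpha subunits, measured -1.82 and -2.94, with -2.22 fitted, and had already reached -1.66 at 12.5 dpc. Cited2, which competes with HIF for its coactivator and is itself a HIF target, measured -1.96 and -2.40, with -2.12 fitted over 4 spots.

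Among 29 further hypoxia targets 2 rose and 1 fell by at least 3-fold between 11.5 and 13.5 dpc, and the list median was -0.16. These counts stand beside 2.93% of all genes higher and 2.57% lower. Stc2, a secreted glycoprotein of calcium and phosphate balance, measured 2.12 and 2.00, and Bhlhe40, a repressor of the clock and of differentiation genes, measured 1.65 and 1.59. Cxcl12, the chemokine that guides cells bearing its receptor Cxcr4, measured -2.34 and -2.59.

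The side branches of the pathway held few large differences, where 2.93% of all genes were at least 3-fold higher and 2.57% lower over the whole period. Of 18 measured isozymes of glycolysis and gluconeogenesis only Pgm2, a phosphoglucomutase, was past 3-fold for 13.5 against 11.5 dpc, at -1.84 and -1.96. Of 10 genes of glycogen metabolism none was past 3-fold in that comparison, but Pygl, the liver glycogen phosphorylase, was higher at 13.5 than at 12.5 dpc, at 2.20 and 2.00, with 2.10 fitted. In that step 1.35% of all genes were at least 3-fold higher. None of the 11 genes of pyruvate entry into mitochondria and none of the 7 genes of the pentose phosphate pathway was past 3-fold for 13.5 against 11.5 dpc, where their medians were -0.18 and 0.36.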

How the data were processed

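The authors hybridised RNA pools of 3 ages to 6 two-colour Agilent arrays, scanned them with GenePix Pro 4.1 (submitters' processing notes) and deposited 1 log2 ratio per spot. Their methods name a print-tip loess within arrays and a 3-fold threshold. The deposited log2 values do not show their centring: the medians of the arrays lay between -0.355 and 0.725, and many values are ratios of small whole numbers. Neither intensities nor probe sequences were used here.

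Each value was taken as log2 of Cy5 over Cy3, and the direction was checked on cartilage markers. Values beyond 16 in size were set missing, the median of each array was subtracted, and ratios were turned to later over earlier age. For each of 45108 spots 2 differences were fitted to the 6 arrays by least squares (Python 3.11.15, numpy 2.4.6, pandas 2.3.3, figures with matplotlib 3.10.9), and spots of a gene were averaged. The fit was tested on simulated data. A spot was dim if its values were ratios of whole numbers up to 12 on at least 2 arrays, which held for 15135 spots and for 6 of the 75 spots of the members. The name rests on this pattern of values and not on a measured intensity, and a spot of ordinary signal may meet it. Of all spots, 33653 had 1 gene symbol, 56 several and 11511 none, and only the first were named.

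A difference was called past 3-fold on the fit. All members were named, and of the other lists the genes past 3-fold with the same sign on both direct arrays. The members, lists and centring were chosen with earlier results of these data known. The precision is limited by the number of arrays. The alternatives were direct arrays only, the indirect path only, no centring, equal spread, the median of a gene's spots, no dim spots, only spots with a value on every array, a 2-fold threshold, and leaving out each array or each dye orientation. Promoter windows came from RefSeq.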

Additional observations from a re-analysis of the deposited data

How the results depend on the processing

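The differences and counts were recomputed under 15 other settings, the counts past 3-fold also at 2-fold, and the counts of the lowest age under 7 of the settings. Over the whole period the count of members at least 3-fold higher, 1 here, was 2 without dim spots and 2 at a 2-fold threshold. The count of lower members, 2 here, was 6 at 2-fold. In the first step the count of lower members, 1 here, was 2 on the indirect path, 0 without centring and 4 at 2-fold. In the second step the count of higher members, 2 here, was 1 without centring and 5 at 2-fold. The median of the hypoxia targets without centring was -0.09 over the whole period, -0.02 in the first step and -0.36 in the second step, and on the indirect path it was -0.51 in the first step. Each of these settings changes which spots, arrays or scale enter the value, and no other cause was tested.

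Leaving out an array or a dye orientation moved the median of the enzymes between -0.66 and 0.96 over the whole period, between -0.99 and 0.06 in the first step and between -0.07 and 1.16 in the second step. The median of the targets lay between -0.56 and -0.26, between -0.51 and -0.36, and between -0.11 and 0.01. The count of members past 3-fold ranged from 0 to 5 higher and from 2 to 7 lower over the whole period, from 0 to 3 lower in the first step and from 1 to 3 higher in the second step. Over all settings 18 of the 33 members kept their sign over the whole period, 16 in the first step and 17 in the second step. The settings that leave out an array or a dye orientation leave the dye component in the value. These counts therefore do not show how stable the signs are with all arrays in. No paired analysis was possible because the replicate numbers mark dye orientations of the same pools and no result comes from a test.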
